A study of Mus musculus with 4 samples.

Results

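The cytosolic ribosomal protein genes were described in RNA-seq count tables of mouse B16 melanoma tumors. Members were chosen by symbol: Rpl or Rps followed by a digit, plus Rplp0, Rplp1, Rplp2 and Rpsa, without the Rps6k kinases, the symbols with -ps and Rps19bp1. This gave 89 of the 25239 gene symbols, 54 of the large and 35 of the small ribosomal subunit. Of these, 83 (50 large, 33 small) had a mean raw count of 10 or more over the libraries and were compared, as were 13357 symbols in all. Of the 89 symbols, 12 name copies or relatives of another member (for example Rpl22l1 or Rpl3l), and the other 77 are called core members here.

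B16 is a melanoma cell line of the C57BL/6 (B6) mouse, here grown under the skin of B6 mice and treated on day 7. The labels describe 4 groups, each with 1 library of total RNA from tumor tissue (about 100 mg per mouse) taken 12 days after ACT, a term the labels do not spell out. Adjuvant CTX, which is not spelled out either, was given intraperitoneally on the day before ACT to the mice of the study, so the CTX group carries it too. The MV left tumor is the left tumor of mice that received free MV into that tumor and TRP-1 T cells intravenously. In the TRP-1MV group, mice received intravenously TRP-1 T cells carrying MV (written TRP-1 TMV cells in the protocol). The remote tumor is the right, uninjected tumor of the MV-injected group, whose mice also received TRP-1 T cells. In the CTX group, PBS was put into the left tumors, and its label names neither T cells nor virus. Column headings give MV as MYXV, which usually stands for myxoma virus, a rabbit poxvirus. The extraction protocol gives n = 2, yet only 1 column of counts exists for a group, and it is not said whether this pools animals. With 1 library per group there is no test between groups: each ratio stands with a 95% exact binomial (Clopper-Pearson) interval that covers counting error only, and no spread between animals could be measured.

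The ribosome translates mRNA into protein. Its small subunit decodes the mRNA and its large subunit joins the amino acids, and each ribosome carries a copy of nearly every ribosomal protein, with acidic stalk proteins present in more than 1 copy. The mRNAs of these proteins begin with a C followed by a run of pyrimidines, the TOP motif, through which the kinase mTOR and the RNA-binding protein Larp1 control their translation and stability together. Ribosomal protein mRNAs are among the most abundant in growing tumor cells and lymphocytes.

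Promoters are shown because the members are known for a shared start sequence and for moving together. A RefSeq promoter entry (GRCm38.p6, the mm10 build) was found for 57 of the 77 core members. Below are bases 50 before to 25 from the annotated start, with the start at base 51 of each line, for the 4 core members with an entry and the lowest ratio of MV left tumor to CTX, then for the 4 with the highest. Capitals mark each run of 7 or more C or T bases that reaches within 20 bases of the start. The windows are chrX:74270766-74270840 (plus strand), chr2:32961662-32961736 (plus strand), chr2:39005107-39005181 (minus strand) and chr11:101442195-101442269 (plus strand) for the lowest, and chr5:65391407-65391481 (minus strand), chr9:64173337-64173411 (plus strand), chr16:55966225-55966299 (plus strand) and chr7:45128721-45128795 (minus strand) for the highest.
Rpl10: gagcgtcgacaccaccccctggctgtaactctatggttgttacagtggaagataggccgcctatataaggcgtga
Rpl12: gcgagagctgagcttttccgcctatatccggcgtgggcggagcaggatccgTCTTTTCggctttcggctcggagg
Rpl35: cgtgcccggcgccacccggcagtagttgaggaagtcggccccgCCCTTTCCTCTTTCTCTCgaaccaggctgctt
Rpl27: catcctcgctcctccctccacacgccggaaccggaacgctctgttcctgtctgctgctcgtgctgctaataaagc
Rpl9: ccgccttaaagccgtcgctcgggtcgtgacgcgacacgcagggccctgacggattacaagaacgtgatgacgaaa
Rpl4: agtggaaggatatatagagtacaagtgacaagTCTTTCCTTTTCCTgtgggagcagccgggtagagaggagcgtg
Rpl24: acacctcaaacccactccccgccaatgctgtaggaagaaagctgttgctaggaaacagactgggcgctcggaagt
Rpl13a: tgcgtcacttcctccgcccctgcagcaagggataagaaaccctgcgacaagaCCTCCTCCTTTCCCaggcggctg

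Such a pyrimidine run was found near the start of 35 of the 57 core members with an entry (61.4%), against 33.7% of the 27025 genes in the promoter table. A C followed by 4 pyrimidines exactly at the annotated start stood in 13 members (22.8%), against 3.01% of all genes. The letters CCGGAAG, the core bound by ETS-family factors such as GABP, were found on either strand of the 300-base promoter window in 24 members (42.1%), against 9.93% of all genes. TATAA between 20 and 45 bases before the start was found in 3 members (5.26%), against 4.44%. As the lines above show, runs occur in Rpl12 and Rpl35 of the low set and in Rpl4 and Rpl13a of the high set. Among the core members with an entry and a mean of 1000 reads or more, the median log2 ratio of MV left tumor to CTX was -0.48 for the 33 with a run and -0.47 for the 21 without one. For CCGGAAG these medians were -0.54 in the 22 members with it and -0.45 in the 32 without it, and for TRP-1MV against CTX they were -0.55 and -0.41. These are descriptions of letters in a window, and annotated starts can be off by some bases.

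The libraries held 12375526 reads in the MV left tumor, 14802809 in TRP-1MV, 21790759 in the remote tumor and 20811605 in CTX. Melanocyte markers such as Tyrp1, Dct and Pmel were abundant throughout, as the melanoma label states, although the tissue label reads skin. Their summed level over 7 genes was 5743 CPM (reads per gene scaled to a common library size by TMM, whose factors centre the bulk of genes) in the MV left tumor and 5379 CPM in TRP-1MV, against 25141 CPM in the remote tumor and 24712 CPM in CTX. T cell markers (6 genes) summed to 159 CPM in the MV left tumor and 159 CPM in TRP-1MV, against 8.44 CPM in the remote tumor and 8.45 CPM in CTX. Macrophage markers (5 genes) summed to 819 CPM in the MV left tumor and 1213 CPM in TRP-1MV, against 60.3 CPM in the remote tumor and 46.8 CPM in CTX. B cell markers (4 genes) summed to 41.2 and 43.5 CPM in MV left tumor and TRP-1MV, against 0.653 CPM in the remote tumor and 0.521 CPM in CTX, where the marker Ms4a1 had no read. Thus the MV left tumor and TRP-1MV libraries stood together, apart from the remote tumor and CTX libraries. Rn45s, Lars2, Rpph1 and Rmrp, symbols that collect reads of ribosomal and other RNA without a poly(A) tail, took 1.64% of reads in MV left tumor and 1.62% in TRP-1MV, against 0.164% in the remote tumor and 0.141% in CTX. In bulk tissue, fewer cells of a type and less RNA per cell cannot be told apart.

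Ribosomal protein genes took a smaller share of the reads in MV left tumor and TRP-1MV libraries. They held 3.72% of all counted reads in the MV left tumor (95% binomial interval 3.71 to 3.73%) and 3.71% in TRP-1MV (3.70 to 3.72%). The share was 4.54% in the remote tumor (4.53 to 4.54%) and 4.37% in CTX (4.36 to 4.38%). With Rn45s, Lars2, Rpph1 and Rmrp left out of the totals, the shares were 3.79%, 3.77%, 4.54% and 4.38%, in the same order. The 5 most read members held 18.7% of ribosomal protein reads in the MV left tumor, 18.9% in TRP-1MV, 19.7% in the remote tumor and 19.0% in CTX, so the pool was spread over many genes in each tumor.

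On the TMM scale, 80 of the 83 members had a ratio below 1 in the MV left tumor against CTX, where 52.5% of all symbols had, while on the scale of 14 housekeeping genes 67 of the 83 had a ratio above 1, where 78.3% of all symbols had. The median log2 ratio was -0.48 (quartiles -0.62 and -0.32), against -0.05 over the 13357 symbols compared and -0.21 over the 4510 other genes with a mean of 1000 reads or more. For TRP-1MV against CTX the median was -0.46, against -0.07 over all symbols and -0.23 over the other well-read genes. Scaling by total counts raised all log2 ratios of MV left tumor to CTX by 0.24 and gave a median of -0.24, and the housekeeping scale raised them by 0.67 and gave 0.18. For TRP-1MV against CTX the shifts were 0.24 and 0.65, with medians of -0.22 and 0.19. The distance between the members and all symbols does not move with the scale: the median member stood 0.43 below the median symbol in the MV left tumor and 0.39 below it in TRP-1MV, both on the log2 scale and against CTX. The housekeeping list itself was far from stable, since 6 of its 14 genes were called lower in each of these comparisons, among them Ppia, Pgk1 and Gapdh.

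**Figure D1:**
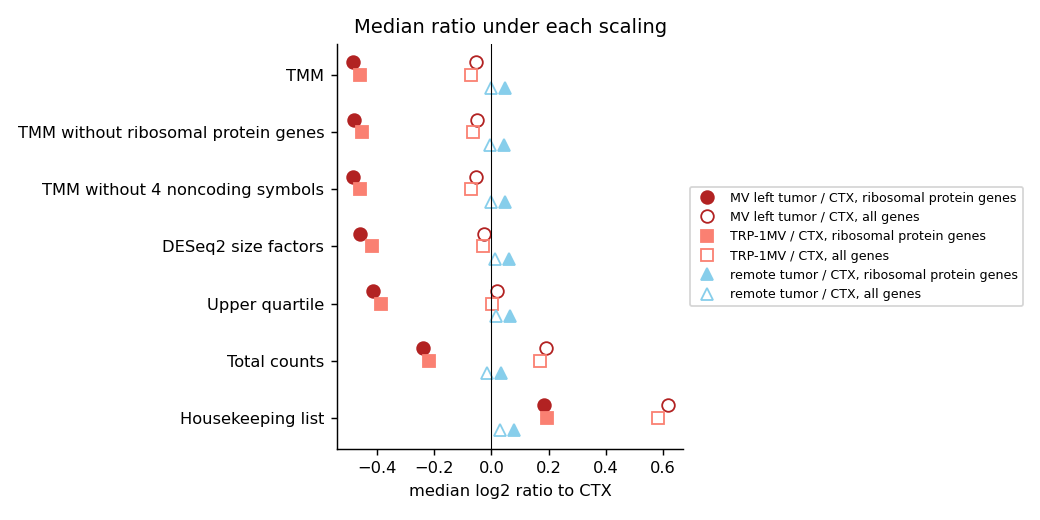
Median log2 ratio to CTX (x axis) of the 83 ribosomal protein genes (filled) and of all symbols compared (open) under 7 scalings (rows), for MV left tumor, TRP-1MV and remote tumor. The filled symbols of MV left tumor and TRP-1MV lie left of their open ones in each row, at -0.48 and -0.46 with TMM, and pass to the right of 0, at 0.18 and 0.19, on the housekeeping list.

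A member was called where its ratio was 2 or more and its interval excluded equality. Of the 83 members, 2 were called lower in the MV left tumor than in CTX (Rplp1 and Rpl30), where 11.1% of all symbols compared were called lower, and 1 was called higher (Rps27), where 18.1% were. In TRP-1MV against CTX the same genes, Rplp1 and Rpl30, were called lower and 0 were called higher, where 11.7% and 18.5% of all symbols were. The shares of called members were below those of all symbols in both directions. On the housekeeping scale 0 members were called lower and 1 was called higher in each of these comparisons, while 33.9% of all symbols were called higher and 2.87% lower in MV left tumor, and 32.8% and 3.20% in TRP-1MV. With TMM, the counting interval lay wholly below equality for 77 members in the MV left tumor, where it did for 42.2% of all symbols, and for 75 members in TRP-1MV, where it did for 43.7%. It lay wholly above equality for 1 member in the MV left tumor and for 0 in TRP-1MV, where it did for 37.6% of all symbols in each comparison. These intervals are narrow, with a median half-width of 0.05 on the log2 scale, because the members are deeply read, and animals may differ by more.

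**Figure D2:**
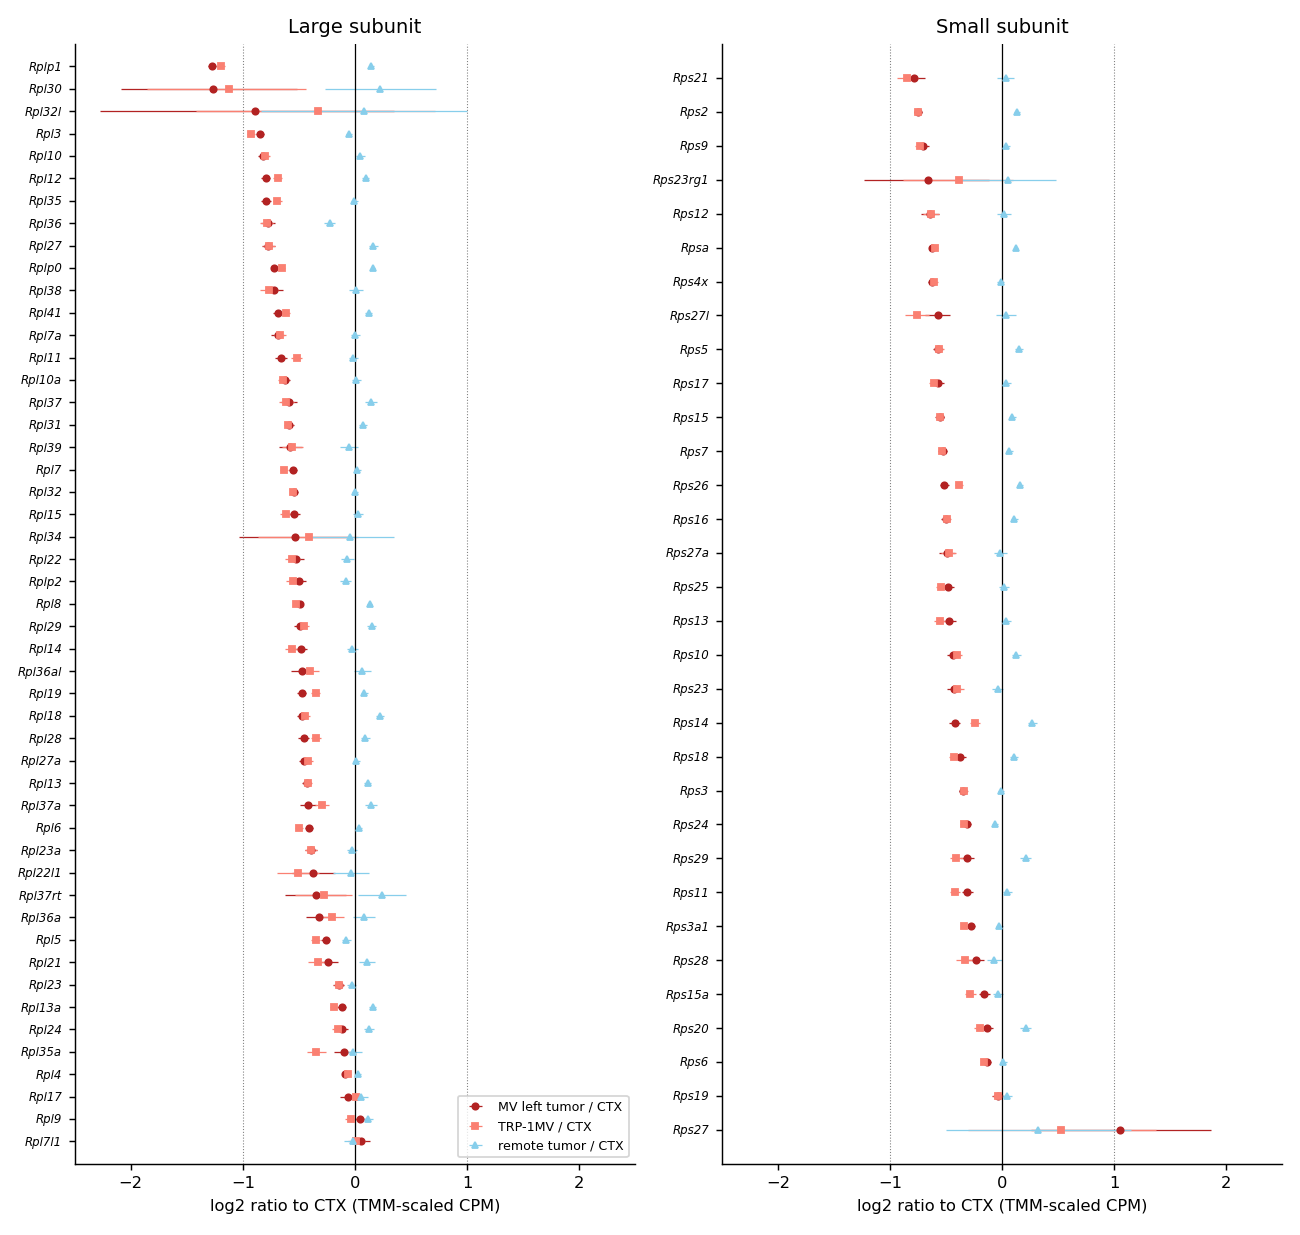
Log2 ratio to CTX (x axis, TMM-scaled CPM) with 95% counting intervals for compared members (rows, sorted by the ratio of MV left tumor to CTX), large subunit at left and small subunit at right. Circles (MV left tumor) and squares (TRP-1MV) run from Rplp1 at -1.27 and -1.19 up to Rps19, Rpl9 and Rpl7l1 near 0 among members of 1000 reads or more, with Rps27, which has few reads, highest at 1.05 and 0.52, while triangles (remote tumor) lie near 0. On the housekeeping scale, which is not drawn, the circles shift by 0.67 and the squares by 0.65 to the right.

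Large and small subunit genes stood at similar levels of change, with the large subunit slightly lower in MV left tumor and TRP-1MV against CTX. The median log2 ratio of MV left tumor to CTX was -0.49 over the 50 large subunit genes and -0.47 over the 33 small subunit genes, both above 0 on the housekeeping scale (0.17 and 0.20). For TRP-1MV against CTX the medians were -0.50 and -0.42, and on the housekeeping scale 0.15 and 0.23. Large minus small was thus -0.02 in the MV left tumor and -0.08 in TRP-1MV, a difference that no scaling can move, against quartiles that lay 0.31 apart for all members in the MV left tumor. Over the core members alone, without the named copies, it was -0.06 in the MV left tumor and -0.11 in TRP-1MV. Large subunit genes held 57.4% of ribosomal protein reads in the MV left tumor (57.3 to 57.6%) and 57.6% in TRP-1MV (57.5 to 57.8%), against 58.3% in the remote tumor (58.2 to 58.4%) and 58.3% in CTX (58.2 to 58.4%). These shares rest partly on Rplp1, a large subunit gene with many reads. Per kilobase of transcript, the median level of large subunit core members was 473 CPM per kb in the MV left tumor and 486 CPM per kb in TRP-1MV, against 754 CPM per kb in the remote tumor and 712 CPM per kb in CTX. For small subunit core members it was 610, 573, 798 and 772 CPM per kb in the same order.

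The stalk of the large subunit, where elongation factors dock, held the lowest of the members with a mean of 1000 reads or more. Rplp1 (ENSMUSG00000007892, chr9:61913284-61914542, minus strand, GENCODE M21 on mm10) encodes an acidic stalk protein that pairs with Rplp2. It had 7580 reads in MV left tumor and 9556 in TRP-1MV, against 29873 in the remote tumor and 26019 in CTX. Its level was 561 CPM in the MV left tumor and 593 CPM in TRP-1MV, against 1501 CPM in the remote tumor and 1357 CPM in CTX. Both virus-associated libraries were low and close to each other. The log2 ratio to CTX was -1.27 in the MV left tumor (interval -1.31 to -1.24) and -1.19 in TRP-1MV (-1.23 to -1.16), and it stayed negative under each of the 7 scalings, at -0.61 and -0.54 on the housekeeping scale, where neither was called. By total counts the TRP-1MV ratio was -0.95, which is under the calling ratio as well. Within the family, independent of scale, Rplp1 lay 0.79 below the median member in the MV left tumor against CTX. Per kilobase it was the most abundant large subunit core member in the remote tumor (3008 CPM per kb) and in CTX (2719 CPM per kb), whereas in the MV left tumor and TRP-1MV Rpl32 was, with 1450 and 1443 CPM per kb.

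Rplp0, the scaffold that holds the stalk pairs, had 1193 CPM in the MV left tumor and 1254 CPM in TRP-1MV, against 2202 CPM in the remote tumor and 1968 CPM in CTX. Its log2 ratios to CTX were -0.72 and -0.65, and on the housekeeping scale -0.05 and 0.00. Rplp2, the partner of Rplp1, had 246 CPM in the MV left tumor and 237 CPM in TRP-1MV, against 328 CPM in the remote tumor and 347 CPM in CTX. Its log2 ratios to CTX, -0.50 and -0.55, lay near the family median and turned to 0.17 and 0.10 on the housekeeping scale. Rplp1 and Rplp2, whose products form dimers, therefore stood apart from each other by 0.78 in the MV left tumor and 0.64 in TRP-1MV on the log2 scale. Rpl12, at the base of the stalk, had 478 CPM in the MV left tumor and 514 CPM in TRP-1MV, against 886 CPM in the remote tumor and 830 CPM in CTX. For Rpl12 the log2 ratios were -0.80 and -0.69, and they stayed below 0 on the housekeeping scale, at -0.13 and -0.04. The median of these 4 stalk genes was -0.76 in the MV left tumor and -0.67 in TRP-1MV.

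**Figure D3:**
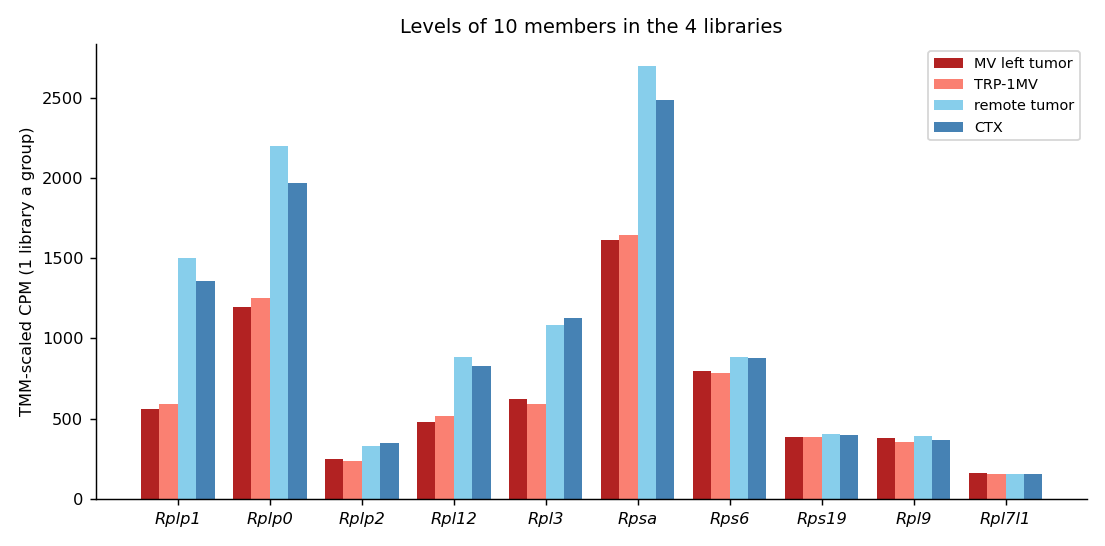
TMM-scaled CPM (y axis, from 0) of 10 members in the 4 libraries, 1 bar per library, to be compared within a gene since CPM are not divided by transcript length. Rplp1, Rplp0, Rpl12, Rpl3 and Rpsa are lower in MV left tumor and TRP-1MV than in remote tumor and CTX on this scale, while Rps19, Rpl9 and Rpl7l1 have bars of similar height in the 4 libraries; on the housekeeping scale Rpsa turns to 0.04 and 0.06 above CTX (log2).

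Other large subunit genes with low ratios were Rpl3, Rpl10, Rpl35 and Rpl27. Rpl3 helps form the peptidyl transferase centre, and it had 8447 reads in MV left tumor and 9538 in TRP-1MV, against 21598 in the remote tumor and 21595 in CTX. Its log2 ratios to CTX were -0.85 and -0.93, and -0.18 and -0.28 on the housekeeping scale. Rpl10, which is added last in the maturation of the large subunit and contacts the tRNA sites, had 4472 and 5382 reads in MV left tumor and TRP-1MV, against 11998 in the remote tumor and 11174 in CTX. Its log2 ratios were -0.82 and -0.80. Rpl35 (-0.80 and -0.69) and Rpl27 (-0.77 and -0.77) followed, and Rpl36 had -0.78 and -0.79. None of these 5 reached the calling ratio.

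At the other end were genes whose level hardly differed among the libraries on the TMM scale. Rpl9, a protein at the base of the stalk region, had 377 CPM in the MV left tumor and 356 CPM in TRP-1MV, against 395 CPM in the remote tumor and 365 CPM in CTX. Its log2 ratios to CTX were 0.05 and -0.04, and 0.71 and 0.61 on the housekeeping scale. Rps19, the small subunit protein most often mutated in Diamond-Blackfan anemia, had 386 CPM in the MV left tumor and 386 CPM in TRP-1MV, against 407 CPM in the remote tumor and 396 CPM in CTX. For Rps19 the ratios were -0.04 and -0.03, with intervals that include 0. Rpl17 (-0.06 and 0.01) and Rpl4 (-0.09 and -0.06) were close to them. Relative to the family median, Rpl9 stood 0.53 higher and Rps19 0.45 higher in the MV left tumor against CTX. The members did not share 1 common ratio: over the 76 members with 1000 reads or more, the SD of the log2 ratios of MV left tumor to CTX was 0.24, while the median half-width of the counting intervals was 0.05. The members were still packed more closely than the 4510 other genes of that depth: their quartiles lay 0.28 apart in MV left tumor against CTX and 0.27 apart in TRP-1MV against CTX, against 0.92 and 0.90 for the other genes.

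The 5 members with the highest CPM in CTX were Rpsa, Rplp0, Rpl4, Rpl8 and Rplp1, with log2 ratios of MV left tumor to CTX from -1.27 (Rplp1) to -0.09 (Rpl4). Rpsa, the small subunit protein also known as a laminin receptor, had 21778 reads in MV left tumor and 26491 in TRP-1MV, against 53749 in the remote tumor and 47660 in CTX. Its log2 ratios to CTX were -0.62 and -0.60, turning to 0.04 and 0.06 on the housekeeping scale. Rps6, the substrate of the S6 kinases downstream of mTOR, had 797 CPM in the MV left tumor and 786 CPM in TRP-1MV, against 885 CPM in the remote tumor and 878 CPM in CTX. The log2 ratios of Rps6 were -0.14 and -0.16, and they were positive by total counts (0.11 and 0.08) and on the housekeeping scale. Rpl5 and Rpl11, which bind Mdm2 when ribosome assembly is disturbed, had log2 ratios to CTX of -0.26 and -0.66 in MV left tumor and -0.35 and -0.52 in TRP-1MV. Among small subunit genes, the lowest were Rps21 (-0.79 and -0.85) and Rps2 (-0.75 and -0.75), a protein at the mRNA entry site. The 3 genes of that entry site (Rps2, Rps3 and Rps9) had medians of -0.70 and -0.74, and 8 genes at the exit of the peptide tunnel had medians of -0.55 and -0.56. No gene of either site reached the calling ratio.

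The comparisons of MV left tumor with remote tumor and of TRP-1MV with CTX have no library in common and gave nearly the same order of members. Over the 76 members with a mean of 1000 reads or more, Pearson's r between their log2 ratios was 0.87 and Spearman's rho 0.83. For TRP-1MV against remote tumor and MV left tumor against CTX, r was 0.92 and rho 0.90. Over the 4510 other genes of that depth, r between MV left tumor against remote tumor and TRP-1MV against CTX was 0.98, so such likeness was not particular to ribosomal protein genes. These are descriptions over genes, which are not independent replicates. Of the 76 members, 73 had both MV left tumor and TRP-1MV below both remote tumor and CTX on the TMM scale, and 11 did on the housekeeping scale. Of the 4510 other genes of that depth, 58.5% had this order on the TMM scale and 22.4% on the housekeeping scale. In MV left tumor against remote tumor the median of the 83 members was -0.55, with 2 called lower (Rplp1 at -1.42 and Rpl30), where 11.7% of all symbols were, and 0 called higher, where 18.6% were. In TRP-1MV against remote tumor it was -0.53, with 2 called lower (Rplp1 at -1.34 and Rpl30), where 12.1% of all symbols were, and 0 higher, where 18.8% were. After Rpl30 (-1.50 and -1.35) and Rplp1, Rpl27 (-0.94 and -0.93) was the lowest core member in both comparisons with the remote tumor. Rps27 (0.73 and 0.21) and Rpl7l1 (0.07 and 0.03) were the members with a ratio above 1 there. The interval lay below equality for 80 and 77 members in these comparisons, where it did for 42.1% and 43.2% of all symbols, and above it for 0 and 0, where it did for 38.5% and 38.1%. On the housekeeping scale the medians were 0.088 and 0.093. At a calling ratio of 1.5, 23 members were called lower in MV left tumor against CTX, where 24.1% of all symbols were, and 25 in TRP-1MV against CTX, where 24.8% were. Against the remote tumor the same rule called 34 lower in MV left tumor, where 24.6% of all symbols were, and 33 in TRP-1MV, where 25.3% were.

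**Figure D4:**
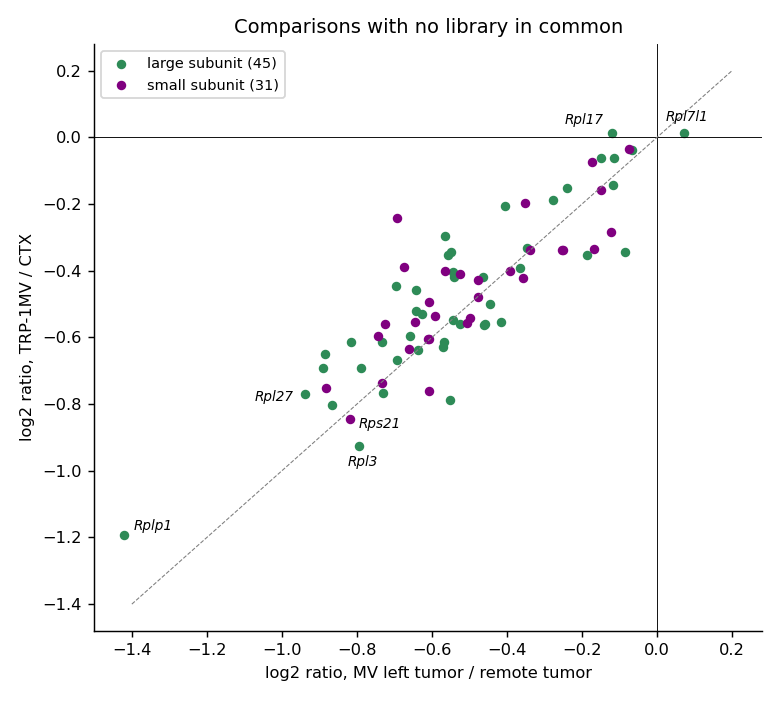
Log2 ratio of TRP-1MV to CTX (y axis) against that of MV left tumor to remote tumor (x axis), TMM-scaled CPM, for the 76 members with a mean of 1000 reads or more, with the dashed line marking equal ratios. Points run along the line from Rplp1 at the lower left to Rpl7l1 at the upper right, with r of 0.87; on the housekeeping scale the cloud moves by 0.64 along x and 0.65 along y, so that both medians pass 0.

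TRP-1MV and MV left tumor hardly differed in these genes. The median log2 ratio of TRP-1MV to MV left tumor was 0.00 over the 83 members, with 0 called lower, where 0.217% of all symbols were, and 0 called higher, where 0.562% were. The interval lay below equality for 20 members and above it for 13, where it did for 11.1% and 11% of all symbols. Ratios ran between -0.52 (Rps27) and 0.55 (Rpl32l), both genes with few reads. Among core members with 1000 reads or more the ends were Rpl35a at -0.24, with 118 CPM in TRP-1MV against 140 CPM in the MV left tumor, and Rps14 at 0.18, with 417 CPM in TRP-1MV against 367 CPM in the MV left tumor. Rps15a (-0.12), Rps27l (-0.19) and Rpl22l1 (-0.13) were next at the lower end, and Rps23rg1 (0.27), Rpl11 (0.14) and Rpl30 (0.14) at the upper end. Rpl35a and Rps14 are both proteins whose loss impairs red cell formation in people. Scalings moved ratios of this comparison by at most 0.02.

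The remote tumor was close to CTX as well. Over the 83 members the median log2 ratio of remote tumor to CTX was 0.05, with 0 called lower, where 0.253% of all symbols were, and 0 called higher, where 0.468% were. The counting interval lay above equality for 37 members, where it did for 12.4% of all symbols, and below it for 7, where it did for 12.3%. Rps14, a small subunit protein near the decoding platform, had 593 CPM in the remote tumor against 493 CPM in CTX, a log2 ratio of 0.27. Rpl36 had 315 CPM in the remote tumor against 368 CPM in CTX, a log2 ratio of -0.22. Next at the upper end among core members of 1000 reads or more were Rpl18 (0.22), Rps20 (0.21) and Rps29 (0.21), and at the lower end Rplp2 (-0.08), Rpl5 (-0.08), Rps28 (-0.07) and Rpl22 (-0.07). With fewer reads, Rps27 (0.32), Rpl37rt (0.24) and Rpl30 (0.23) had intervals of which only that of Rpl37rt excluded equality. The median stayed above 0 under each scaling, between 0.03 and 0.08. Over 4478 other genes of 1000 reads or more, the ratio of remote tumor to CTX moved with the GC content of the transcript (r = 0.56, rho = 0.64), and over the 76 members r was 0.24 and rho 0.37. For MV left tumor against CTX these members gave r = -0.32 with GC content and r = 0.22 with length, and the part of GC content in the ratios was not tested.

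Several core members were barely counted or not at all, although their proteins are parts of the ribosome. Of the reads of Rps27 and its named copy Rps27l, Rps27l took 96.5% in the MV left tumor and 97.2% in TRP-1MV. It took 98.6% in the remote tumor and 98.8% in CTX. Rpl26 was listed at 0 in all 4 libraries. Rps27 had 35 reads in the MV left tumor, 29 in TRP-1MV, 31 in the remote tumor and 24 in CTX, and its call (log2 ratio 1.05, interval 0.26 to 1.86) rests on those reads. Rpl30 had 19 reads in MV left tumor and 25 in TRP-1MV, against 79 in the remote tumor and 65 in CTX. Rpl34 had 54, 70, 112 and 111 reads in the same order. Of the 50-base stretches of the Rps27 transcript, 98.6% also occur in a transcript of another gene, and for Rpl30, Rpl34 and Rpl26 the shares were 76.4%, 50.6% and 71.3%. Many such copies are processed pseudogenes. Yet Rpl35 (95.1%), Rpl5 (93.8%) and Rpl10 (92.1%) shared as much and were well counted, with 6047, 6593 and 4472 reads in MV left tumor, and the counting rule for reads with several matches is unknown here. The values of Rps27, Rpl30, Rpl34 and Rpl26 are thus uncertain, and any member's count may lack or hold reads of its copies.

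Named copies of subunits were 12, of which 7 passed the minimum. Rpl7l1, a relative of Rpl7 that acts in large subunit assembly, had 162 CPM in the MV left tumor and 157 CPM in TRP-1MV, against 154 CPM in the remote tumor and 156 CPM in CTX. It showed no loss on the TMM scale, with log2 ratios to CTX of 0.05 and 0.01, and was at 0.72 and 0.66 on the housekeeping scale. Of the reads of the pair Rpl7l1 and Rpl7, it therefore took 19.7% in the MV left tumor and 20.1% in TRP-1MV, against 13.6% in the remote tumor and 13.9% in CTX. Rpl22l1, the relative that can replace Rpl22, took 12.6% of its pair in the MV left tumor and 11.8% in TRP-1MV, against 11.7% in the remote tumor and 11.4% in CTX. Rpl36al took 59.3% of its pair with Rpl36a in the MV left tumor and 58.6% in TRP-1MV, against 61.6% in the remote tumor and 61.8% in CTX. Rps27l, a p53 target in human and mouse cells, had 972 reads in MV left tumor and 1018 in TRP-1MV, against 2182 in the remote tumor and 2054 in CTX. Its log2 ratios to CTX were -0.57 and -0.76, turning above 0 in the MV left tumor on the housekeeping scale. Rpl37rt (-0.35 and -0.28), Rps23rg1 (-0.66 and -0.39) and Rpl32l (-0.89 and -0.33) had means under 1000 reads and wide intervals. Rpl32l, with a mean of 16.5 reads, stood just inside the minimum, and Rps4l, with 8.5, just outside.

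Below the minimum, Rps4l had 11 reads in MV left tumor and 13 in TRP-1MV, against 5 in the remote tumor and 5 in CTX. Rpl3l, the muscle form of Rpl3, had 10 and 4 reads in MV left tumor and TRP-1MV, against 2 in the remote tumor and 1 in CTX. Rpl39l, a testis form, had 1, 0, 2 and 0 reads in the order MV left tumor, TRP-1MV, remote tumor and CTX. Rpl10l, Rps27rt and Rpl26 had no read in any library, which allows up to 3 counts in each, or 0.222 CPM in the MV left tumor, 0.186 CPM in TRP-1MV, 0.151 CPM in the remote tumor and 0.156 CPM in CTX. These limits hold for counted reads and do not bound the expression of Rpl26 and Rps27rt, since 71.3% and 91.1% of the 50-base stretches of their transcripts also occur in other genes. GENCODE M21 gave a position for 88 of the 89 members, on 19 chromosomes, with the most, 14, on chromosome 7.

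Ribosomal proteins whose symbols fall outside the rule included Fau and Rack1. Fau encodes a ribosomal protein fused to a ubiquitin-like protein. It had 3647 reads in MV left tumor and 4356 in TRP-1MV, against 4757 in the remote tumor and 4486 in CTX, log2 ratios to CTX of 0.21 and 0.21 that were positive under each scaling. Rack1, a scaffold on the small subunit, had -0.52 and -0.59. Rps27a, a member of the rule's set that is made as a fusion to ubiquitin, had log2 ratios to CTX of -0.49 and -0.48. On the housekeeping scale, which adds 0.67 and 0.65, Rack1 and Rps27a pass above 0.

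The ribosome of mitochondria lay lower than the cytosolic one. In MV left tumor and TRP-1MV against CTX, 11.1% and 11.7% of all symbols were called lower, and 18.1% and 18.5% higher. Of the 78 mitochondrial ribosome genes, 14 were called lower and 0 higher in the MV left tumor, and 17 lower and 0 higher in TRP-1MV. Their median log2 ratios were -0.66 and -0.69, and the remote tumor stood at 0.03. On the housekeeping scale the medians in MV left tumor and TRP-1MV were 0.01 and -0.04, and 0 were called in either direction. Of all symbols, 33.9% and 32.8% were called higher on that scale, and 2.87% and 3.2% lower. The lowest in the MV left tumor were Mrps33 (-1.62), Mrpl23 (-1.59), Mrps21 (-1.51) and Mrps25 (-1.36), and Mrpl49 was highest, at 0.21. Independent of scale, the cytosolic median lay 0.17 above the mitochondrial one in the MV left tumor and 0.23 above it in TRP-1MV.

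Genes of the elongation list also differed among themselves. Besides elongation factors, that list holds related genes such as the release factor Etf1 and the kinase Eef2k. Of its 11 genes compared, 3 were called lower and 0 higher in both MV left tumor and TRP-1MV against CTX. In these comparisons 11.1% and 11.7% of all symbols were called lower, and 18.1% and 18.5% higher. The 3 were Eef2k, the kinase that inhibits Eef2, Eif5a2, a second form of the hypusinated factor Eif5a, and Eef1a1, which delivers tRNA. Eef1a1 had 78829 reads in MV left tumor and 94322 in TRP-1MV, against 236246 in the remote tumor and 227647 in CTX. Its log2 ratios were -1.02 and -1.02, and -0.36 and -0.37 on the housekeeping scale. Eef2k had 275 reads in MV left tumor and 319 in TRP-1MV, against 2819 in the remote tumor and 2685 in CTX, log2 ratios of -2.78 and -2.82. Eef2, the translocase that docks at the stalk, had 62352 reads in MV left tumor and 75481 in TRP-1MV, against 87755 in the remote tumor and 82126 in CTX. Its log2 ratios were 0.11 and 0.13 and positive under each scaling. The list's medians were -0.75 and -0.77, and -0.08 and -0.11 on the housekeeping scale.

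Among 35 initiation factors 0 were called in either direction in MV left tumor or TRP-1MV against CTX. All symbols had 11.1% and 11.7% called lower there, and 18.1% and 18.5% called higher. The initiation factors had medians of -0.31 and -0.35 that turned to 0.36 and 0.30 on the housekeeping scale. The ends in the MV left tumor were Eif3i, a subunit of the factor that binds the small subunit, at -0.85, and Eif4a2, an RNA helicase, at 0.95. Its sister helicase Eif4a1 was at -0.78 in the same comparison. Beside the same shares of all symbols, Eef1a1 was called lower and 0 were called higher in 20 other genes with TOP mRNAs. Their medians were -0.15 and -0.27, above 0 on the housekeeping scale (0.52 and 0.39) and in the MV left tumor by total counts (0.09). Pabpc1, the poly(A)-binding protein, and Tpt1, a growth-related protein, stood at 0.13 and 0.09 in the MV left tumor, so mRNAs of this class did not share a ratio with Rplp1 or Eef1a1.

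Ribosome assembly genes (49) had medians of -0.25 and -0.27 in MV left tumor and TRP-1MV against CTX, turning to 0.42 and 0.39 on the housekeeping scale. Beside the calls below, 11.1% and 11.7% of all symbols were called lower in these comparisons, and 18.1% and 18.5% higher. Nhp2, a protein of the particles that guide pseudouridylation, was called lower (-1.32 and -1.25), and Sbds, which helps release Eif6 from the large subunit, was called higher (1.24 and 1.19). Of 15 RNA polymerase I genes, Taf1a and Ttf1, initiation and termination factors of that polymerase, were called higher in both comparisons, and Polr1b, a core subunit, was called lower in TRP-1MV (-1.08). Among 21 regulators of mTOR, TOP mRNAs, Myc and p53, Deptor (-2.15 and -2.30), an inhibitor of mTOR, and Eif4ebp1 (-1.41 and -1.22), an inhibitor of cap-dependent initiation, were called lower. Mdm2 (2.16 and 2.14) and Cdkn1a (1.70 and 1.71), both p53 targets, and Mycn, at 21 and 19 reads against 3 in CTX, were called higher. Larp1 (-0.07 and -0.05), Mtor (0.15 and 0.12) and Myc (-0.29 and -0.23) were not called. The medians of that list were 0.03 and 0.03.

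**Figure D5:**
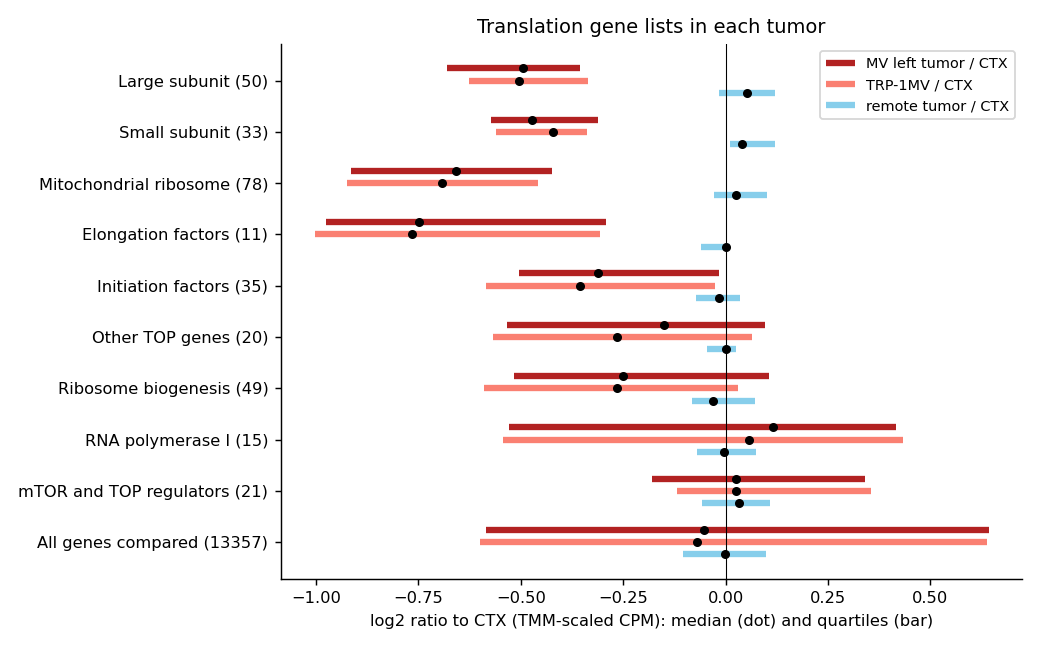
Median (dot) and quartiles (bar) of log2 ratios to CTX (x axis, TMM-scaled CPM) for ribosomal protein genes by subunit, related translation lists and all symbols compared (rows, with the number of genes), in MV left tumor, TRP-1MV and remote tumor. The row of elongation factors also holds related genes such as Etf1 and Eef2k. Both subunits lie at -0.42 to -0.50 in MV left tumor and TRP-1MV, between mitochondrial ribosome genes (-0.66 and -0.69) and initiation factors (-0.31 and -0.35), and the remote tumor stays near 0; the housekeeping scale would move the MV left tumor bars by 0.67 and the TRP-1MV bars by 0.65 to the right.

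Markers of several cell types also differed among the libraries. Of all symbols, 18.1% and 18.5% were called higher in MV left tumor and TRP-1MV against CTX, and 11.1% and 11.7% lower. All 6 T cell, 5 macrophage and 4 B cell markers and 3 of the 4 neutrophil markers (the fourth, Ly6g, was below the minimum count) were called higher in both MV left tumor and TRP-1MV against CTX, and all 7 melanocyte markers were called lower. Proliferation markers (5 genes) summed to 1595 CPM in the MV left tumor and 1502 CPM in TRP-1MV, against 2417 CPM in the remote tumor and 2461 CPM in CTX. Of these 5 genes, 1 was called lower in MV left tumor and 2 in TRP-1MV against CTX, with 0 called higher. In each comparison 4 of the 5 had a ratio below 1. Tk1, a thymidine kinase of dividing cells, was called lower in both, at log2 ratios to CTX of -1.98 in MV left tumor and -2.05 in TRP-1MV, while Mki67 was at 0.31 and 0.20. Of the 3 endothelial markers compared, Kdr and Pecam1 were called higher in both comparisons, Cdh5 was at 0.06 and -0.01, and the list summed to 16.9 CPM in the MV left tumor and 17.8 CPM in TRP-1MV, against 6.68 CPM in the remote tumor and 6.73 CPM in CTX. Of the 5 fibroblast markers 0 were called in either comparison, and their sum was 46.8 CPM in the MV left tumor and 45.9 CPM in TRP-1MV, against 48.9 CPM in the remote tumor and 51.8 CPM in CTX. S100a8, a neutrophil marker, had no read in CTX. The part of cell makeup in the ribosomal protein values was not tested.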

How the data were processed

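Gene expression was measured by RNA-seq of total RNA in 4 libraries, 1 per group. The authors deposited raw counts per gene symbol, whole numbers that were not normalized. Alignment and counting tools named in the submitters' processing notes are HISAT2 and featureCounts, with build mm10. Not given in the sources used here were versions, annotation, strand and the treatment of multi-mapping reads. Groups came from titles and treatment labels. Members and lists were chosen with earlier results of these data known; Rpl32l and Rps23rg1 joined the copies, and the stalk, Rpl5 and Rpl11, tunnel and mRNA entry groups were listed, after the symbols of the tables were seen.

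Counts were scaled with edgeR's TMM (version 4.0.16, R 4.3.3) across the 4 libraries. Symbols with a mean raw count of 10 or more, and over 3 reads in a library of the pair, were compared by log2 ratio of CPM with a conditional Clopper-Pearson 95% interval (scipy 1.17.1, numpy 2.4.6, pandas 2.3.3, Python 3.11.15; figures with matplotlib 3.10.9). A gene was called at a ratio of 2 with the interval excluding equality; where 1 library had no read, 3 counts in it stood in as a floor. The ratios were checked on simulated data. No p-value was computed, since each group has 1 library. Totals of 12375526 to 21790759 reads give the members a median interval half-width of 0.04 to 0.05 on the log2 scale. Named members were the 5 highest and lowest ratios of each comparison, all called ones, the 5 highest CPM, the copies, those below the minimum, and Rplp0, Rplp1, Rplp2, Rpsa, Rps6, Rpl5 and Rpl11. Positions, transcript lengths, GC content and shared 50-base stretches came from GENCODE M21, using the shortest transcript among those ranked best by APPRIS, and promoters from RefSeq (GRCm38.p6). Alternatives were total counts, size factors of DESeq2 1.42.0, upper-quartile scaling, TMM without the members, a scale from the median ratio of 14 housekeeping genes, no minimum, a minimum of 50, a calling ratio of 1.5, thinning to the smallest total, means for medians, and leaving out the copies. Some members and markers are not reported by name here, though they stay in the counts, sums and medians.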

Additional observations from a re-analysis of the deposited data

How the results depend on the processing

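Under DESeq2 size factors, TMM without these genes and without the named copies, medians moved by no more than the median half-width of the counting intervals. That half-width was 0.04 to 0.05, and the numbers called stayed the same in all 6 comparisons. The same held for TMM without Rn45s, Lars2, Rpph1 and Rmrp, an alternative chosen after seeing the data. No scaling can move the large minus small difference, so only leaving out the named copies could change it here. Without them it moved by no more than that half-width, to -0.06 in MV left tumor against CTX and -0.11 in TRP-1MV against CTX. In the order MV left tumor against CTX, TRP-1MV against CTX, MV left tumor against remote tumor and TRP-1MV against remote tumor, the median was -0.24, -0.22, -0.29 and -0.28 by total counts and -0.41, -0.39, -0.49 and -0.47 with upper-quartile factors. On the housekeeping scale it turned to 0.18, 0.19, 0.088 and 0.093, and 0 members were called lower in each of the 4, with 1, 1, 1 and 0 called higher. Of all symbols, 2.87%, 3.2%, 3.07% and 3.43% were called lower on that scale, and 33.9%, 32.8%, 33.7% and 32.6% higher. By total counts 0 members were called lower in TRP-1MV against CTX, where 6.97% of all symbols were. Without a minimum count the higher calls were 2, 1, 2 and 1. With a minimum of 50, and with members of 1000 reads or more (also chosen after seeing the data), 1 was called lower in each of the 4 and 0 higher in MV left tumor against CTX, since Rpl30 and Rps27 have few reads. Of the 4586 symbols of 1000 reads or more, 534, 556, 576 and 599 were called lower in the same order. In MV left tumor against CTX, 260 of them were called higher. At a calling ratio of 1.5 the lower calls were 23, 25, 34 and 33 of the 83 members, where 24.1%, 24.8%, 24.6% and 25.3% of all symbols were. Thinning to the smallest total left 0 higher in MV left tumor against CTX. Shares of all symbols were not computed without a minimum, with a minimum of 50 or after thinning, so those counts stand without them. Means in place of medians gave large minus small differences of -0.10 in MV left tumor against CTX, -0.087 in MV left tumor against remote tumor and -0.044 in TRP-1MV against remote tumor.

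As every group is a single library, none was left out in turn and the spread between animals is unknown. Depth limits the members with few reads. No paired analysis was possible because the ratios come from no test.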
